A study of Daucus carota with 10 samples.

Results

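The comparison described here set phloem H, the purple phloem of a black carrot taproot, against CT, a slice through the entire root of ‘H13.360IND’, which the labels call orange. Its members were fixed by the labels: the 2 libraries coded H and the 2 libraries of ‘H13.360IND’, which make 4 of the 10 RNA-Seq libraries of the series, each with an FPKM value for 36908 loci. The other libraries were xylem E, phloem F and xylem G, with 2 biological replicates each. All taproots were 120 days old and grown in a greenhouse, and the methods of the study state that 10 taproots of a cultivar were mixed. No group carried an introduced allele or a treatment.

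The sources place H in different cultivars. The sample titles and cultivar tags give ‘Purple 68’ for G and H and ‘Purple Haze’ for E and F, and the series design and the study give the reverse. The same conflict touches colour, since the colour tags call xylem E orange and xylem G purple, whereas the study describes E as purple and G as orange. Groups are therefore named by letter. H is purple phloem in every source. CT is orange in the labels and in most of the study's text, but the study's methods call ‘H13.360IND’ yellow. A whole slice holds xylem and cambium as well as phloem, so that colour, cultivar and tissue change together in this comparison and cannot be told apart in it. In bulk tissue, fewer cells of a type and less RNA per cell cannot be told apart either.

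Anthocyanins are the red to purple pigments of the vacuole. They are made from phenylalanine through the general phenylpropanoid steps (PAL, C4H and 4CL), the flavonoid steps (CHS, CHI, F3H and F3′H) and the late steps (DFR, LDOX and glycosyltransferases), and a glutathione S-transferase is needed for their transport to the vacuole. The genes are switched on by complexes of MYB, bHLH and WD40 proteins. In purple carrot the pigment is largely an acylated cyanidin glycoside, and the acyl groups are hydroxycinnamic acids that come from the same phenylpropanoid branch.

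The scaling totals of the 10 libraries lay between 13909750 and 17118711 fragments, so a level of 0 allows up to 3 fragments per library, a limit that covers counting error only. The replicates of H were less alike than those of CT: the SD of the difference between replicates in log2(FPKM + 1) was 0.83 in H and 0.44 in CT over 18331 genes. H also differed from CT with gene length. Among the longest genes (at least 2269 bp), the median log2(FPKM + 1) differed from the CT mean by −0.625 in library 1 of H and by −1.551 in library 2, whereas among the shortest (up to 1129 bp) it differed by 0.125 and 0.237. Of the E, F and G libraries, all but the first of E showed medians of −0.456 to −1.268 in the longest genes, and the first of E showed −0.225. The counts of gene lists are therefore also given after an adjustment for length (a spline fitted per library) and without library 2 of H, both chosen after the data were seen. The cause of this trend was not tested.

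**Figure D1:**
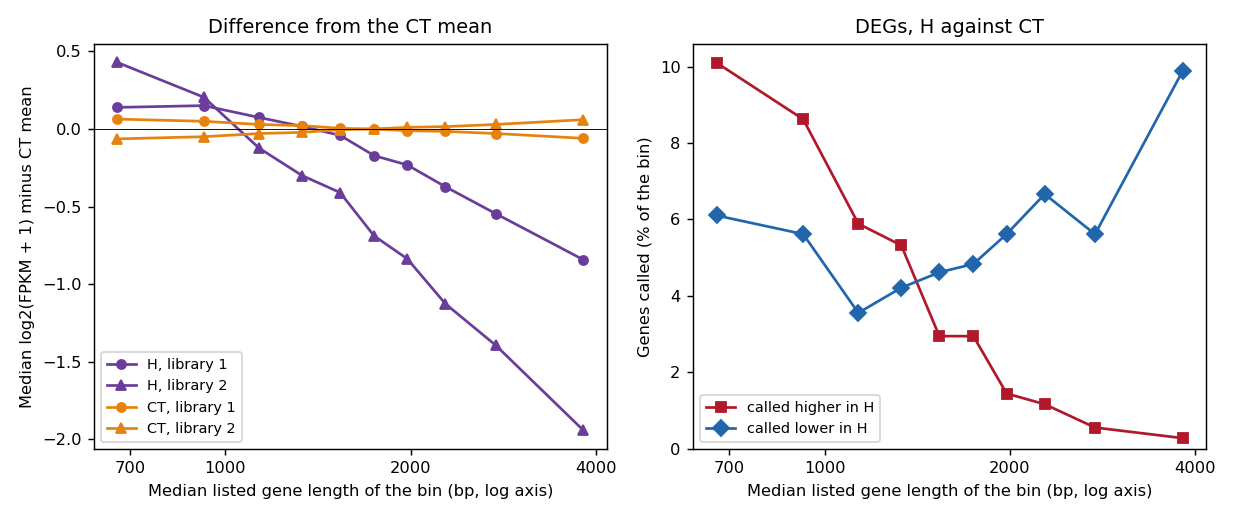
Left, the median difference of each library from the CT mean in log2(FPKM + 1), in 10 bins of genes by listed length (bp, log axis). Right, the percentage of genes of each bin called higher or lower in H than in CT. Library 2 of H reached −1.94 in the longest bin (median length 3821 bp) and library 1 reached −0.84. Genes called higher made up 10.1% of the shortest bin and 0.278% of the longest, where 9.89% were called lower.

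How far did the transcriptome of purple phloem H differ from that of the orange root? Of 19496 genes tested, 1981 (10.2%) were DEGs by limma, that is, their Benjamini-Hochberg adjusted p was below 0.05 and their log2 fold change was 1 or more in either direction. In H, 751 genes (3.85%) were higher and 1230 (6.31%) lower than in CT. Over all genes tested the median log2 fold change was −0.46 as deposited and −0.06 after length adjustment, which gave 1010 higher (5.18%) and 935 lower (4.8%). The direction thus depended on the scaling: higher calls were 37.9% of all calls in the first case, 51.9% with length adjustment and 53.4% with quantile normalization. Of the 751 genes higher in H, 670 (89.2%) were also called higher with length adjustment, and of the 1230 lower ones 725 (58.9%) were also called lower. Leaving out library 2 of H leaves a single H library. In that fit without length adjustment, even *CHS1*, the largest rise described below, was called just below the adjusted p threshold. Counts from that fit are therefore fragile. Without library 2 of H, limma called 463 genes higher (2.36%) and 281 lower (1.43%). With length adjustment and without library 2, it called 1278 higher (6.52%) and 1324 lower (6.75%). As deposited, with length adjustment, and with both length adjustment and library 2 left out, 576 genes were called higher and 670 lower in all 3 fits. The counts rested on both CT libraries: 9 genes were called without library 1 of CT and 0 without library 2 (2620 and 2704 at an unadjusted p below 0.05), and 8611 without library 1 of H.

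Most of the largest rises were in genes of anthocyanin biosynthesis. Among the 21 structural genes listed by the study, which chose them on the libraries E, F, G and H, 20 passed the filter on low values, 13 were higher in H, 1 was lower, and 6 were not called. Their median log2 fold change was 3.03, against −0.46 over all genes, and 3.37 against −0.06 with length adjustment. With length adjustment 13 were again called higher, and 10 without library 2 of H; without library 1 of CT 4 were called, and without library 2 of CT 0. Since H entered the choice of the list, this count is no independent evidence of its direction.

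At the entry of the pathway, *PAL4* (LOC108223317), whose enzyme removes ammonia from phenylalanine, had 106 and 164 FPKM in H, against 6.15 and 18.2 FPKM in CT. Its log2 fold change on the log2(FPKM + 1) scale was 3.50 ± 0.52 (SE) with a limma adjusted p of 0.0264. *C4H1* (LOC108223289), the cinnamate hydroxylase, had 506 and 544 FPKM in H, against 53.9 and 88.01 FPKM in CT (2.91 ± 0.30). *4CL3-1* (LOC108227923), a coenzyme A ligase for coumarate, had 143 and 173 FPKM in H, against 13.6 and 24.7 FPKM in CT (3.03 ± 0.34). The H libraries of these 3 genes lay above both CT libraries, as in 20.4% of all genes tested, and CT already held between 6.15 and 88.0 FPKM. Without library 2 of H these genes were not called, with log2 fold changes of 3.19, 2.86 and 2.89. Genes called in that fit, such as *CHS1*, passed the threshold only narrowly. These entry steps also serve lignin and other phenolics.

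The step that commits carbon to flavonoids differed far more. *CHS1* (LOC108200622, chalcone synthase, on the minus strand at 29683846 to 29685950 of its sequence) had 6252 and 8502 FPKM in H, against 8.40 and 8.72 FPKM in CT, a ratio of means of 861. Its log2 fold change of 9.57 ± 0.25 was the largest rise of the comparison among genes with non-overlapping libraries and at least 10 FPKM in H (limma adjusted p = 0.000632). The other chalcone synthases did not follow. *CHS9* (LOC108212629) had 2.11 and 3.57 FPKM in H, against 1.72 and 2.09 FPKM in CT, and was not called (adjusted p = 0.494), and *CHS2* (LOC108192262) had 0 and 1.84 FPKM in H, against 0.48 and 0.13 FPKM in CT, and did not pass the filter on low values.

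The isomerases and hydroxylases that act on the chalcone were also high. *CHI1* (LOC108220831) had 644 and 557 FPKM in H, against 1.76 and 2.36 FPKM in CT, and *CHI2* (LOC108197475) had 1706 and 1602 FPKM in H, against 2.79 and 2.63 FPKM in CT. Their log2 fold changes were 7.62 ± 0.25 and 8.80 ± 0.21. *F3H1* (LOC108213382), which makes dihydroflavonols, had 1233 and 1681 FPKM in H, against 2.58 and 1.66 FPKM in CT (8.87 ± 0.28). *F3′H1* (LOC108216209), whose product leads to cyanidin, had 90.8 and 168 FPKM in H, against 0.82 and 0.85 FPKM in CT (6.09 ± 0.40). No CT library exceeded 2.79 FPKM for any of these 4 genes.

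Of the late genes, *DFR1* (LOC108224780, dihydroflavonol reductase) had 637 and 393 FPKM in H, against 1.84 and 2.31 FPKM in CT (7.35 ± 0.32). *LDOX1* (LOC108209615, which forms the coloured anthocyanidin) had 916 and 1220.4 FPKM in H, against 0.45 and 0.53 FPKM in CT, and its log2 fold change was 9.47 ± 0.26 with an adjusted p of 0.000632. A second LDOX-like gene, LOC108198717, had 9.87 and 12.2 FPKM in H, against 0.34 and 0.60 FPKM in CT (3.03 ± 0.39), and a flavonol synthase-like gene, LOC108197342, had 15.02 and 40.4 FPKM in H, against 0 and 0.25 FPKM in CT (4.53 ± 0.57). *LDOX1* was the higher of the LDOX-like transcripts in both H libraries. A pair of further DFR-like genes, LOC108224131 and LOC108224331, were not called (adjusted p = 0.747 and 0.917).

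The glucosyltransferases differed among themselves, whereas the transport and acylation genes named by the study were higher. Among the 3 genes annotated as anthocyanidin 3-O-glucosyltransferase 2-like, LOC108214313 was higher in H, with 2.59 and 3.94 FPKM in H, against 0 and 0.091 FPKM in CT (2.01 ± 0.31), at low levels in all libraries. LOC108210672 was lower, with 0.11 and 0 FPKM in H, against 2.10 and 1.74 FPKM in CT (−1.47 ± 0.25), and was not called with length adjustment (−1.07). LOC108220258 had 8.56 and 2.69 FPKM in H, against 16.1 and 9.24 FPKM in CT, and was not called (adjusted p = 0.21). *GST1* (LOC108205254), annotated as the phi-class glutathione S-transferase F11, had 1525 and 2240.5 FPKM in H, against 4.07 and 3.66 FPKM in CT, a log2 fold change of 8.57 ± 0.27. *DcSCPL1* (LOC108214129), a serine carboxypeptidase-like protein of the family that contains acyltransferases, had 286 and 273 FPKM in H, against 0.26 and 0.14 FPKM in CT (7.88 ± 0.28). The remaining genes among the 10 largest rises were LOC108225223, described below among the phenylpropanoid genes, and a pair that is not described further. Of that pair, LOC108213096 had 519 and 1518 FPKM in H, against 0.66 and 1.24 FPKM in CT (8.85 ± 0.54). LOC108200979 had 342 and 439 FPKM in H, against 0.81 and 0.37 FPKM in CT (7.95 ± 0.30). The files give neither a name.

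**Figure D2:**
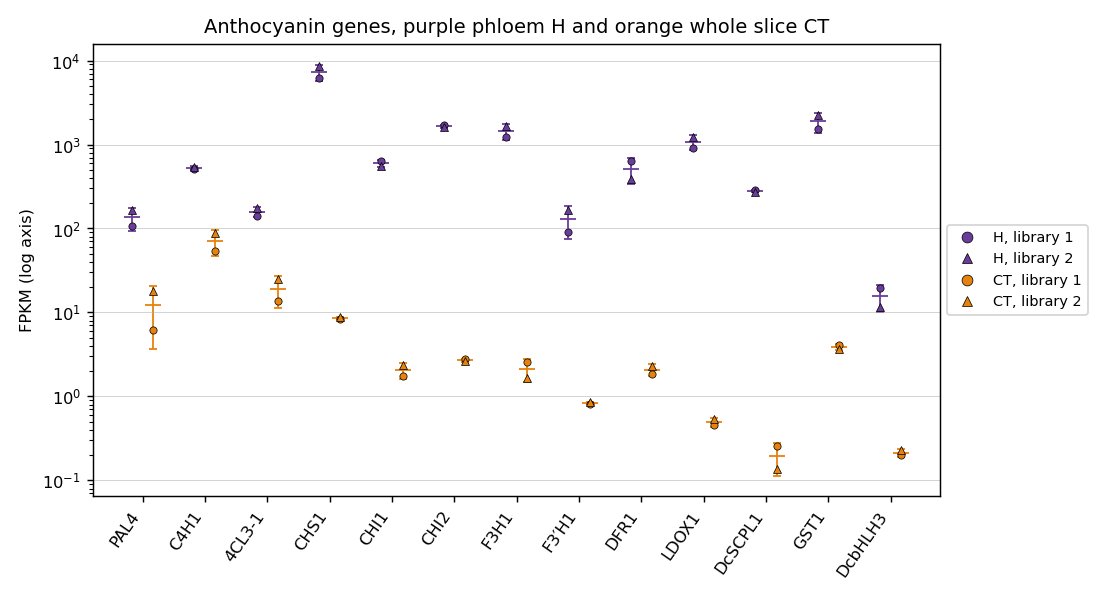
FPKM (log axis) of 13 anthocyanin genes in each library of H (purple, left of each pair) and CT (orange, right); circles and triangles are libraries 1 and 2, and bars are the mean ± SD (n = 2), with lower bars cut short of 0. All H points lie above all CT points, as in 20.4% of all genes tested. The distance is smaller for *PAL4*, *C4H1* and *4CL3-1* than for *CHS1*, *LDOX1* and *DcSCPL1*.

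The regulators gave a different picture. *DcbHLH3* (LOC108204485), a bHLH protein A gene of the kind that binds anthocyanin MYBs, had 19.8 and 11.7 FPKM in H, against 0.20 and 0.23 FPKM in CT, a log2 fold change of 3.74 ± 0.43 with an adjusted p of 0.0197. *DcMYB6* (LOC108192278), a MYB113-like gene, had 0 and 0.055 FPKM in H, against 1.42 and 2.11 FPKM in CT. It was lower in H (−1.42 ± 0.26, limma adjusted p = 0.037). It was called in 6 of 8 alternatives that kept all 4 libraries, with limma adjusted p up to 0.0593. The 8 include the fit without a minimum fold change, which repeats the adjusted p of the main fit and so cannot drop a call. *DcMYB7* (LOC108213488), the other MYB113-like gene named by the study, had 0.17 and 0.34 FPKM in H, against 0.13 and 0.31 FPKM in CT, and did not pass the filter. *DcMYB7* was thus near 0 in all 4 libraries. By contrast, *DcMYB6* had 33.8 and 53.2 FPKM in F and *DcMYB7* had 105 and 172 FPKM in F, so that H was lower than F by direct test (log2 fold change −5.40, adjusted p = 0.0114, and −6.76, adjusted p = 0.00475).

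Of 18 listed MYB genes, 15 were tested, 3 were higher in H and 2 lower (20.0% and 13.3%, against 3.85% and 6.31% over all genes). The study chose the MYB, bHLH and GST lists from DEGs among the E, F, G and H libraries. For these lists, shares of calls above those of all genes are therefore no independent evidence. The counts were 3 and 1 with length adjustment, and 1 and 0 without library 2 of H. The highest MYB transcript of H on this list was LOC108196925, a MYB1R1-like gene, with 851 and 917 FPKM in H, against 126 and 184 FPKM in CT (2.53 ± 0.27, adjusted p = 0.0184, and 0.058 without library 2 of H). The others higher in H were the repressor MYB6-like gene LOC108194193, with 15.2 and 12.97 FPKM in H, against 1.69 and 1.11 FPKM in CT (2.66 ± 0.40), and the MYB3-like gene LOC108208100, with 4.51 and 1.85 FPKM in H, against 0.063 and 0.20 FPKM in CT (1.81 ± 0.40, adjusted p = 0.04996). The last of these stood at the threshold and was called in 5 of the 8 alternatives, counting the fit without a minimum fold change. Beside *DcMYB6*, the MYB 330 gene LOC108224728 was lower, with 0.22 and 0.18 FPKM in H, against 2.94 and 3.40 FPKM in CT, and it was not called with length adjustment (−1.22). A second MYB1R1-like gene, LOC108193779, had 72.6 and 30.00 FPKM in H, against 60.9 and 73.9 FPKM in CT, and was not called (adjusted p = 0.421).

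Of 20 listed bHLH genes, 19 were tested, 2 were higher and 5 lower, with a median log2 fold change of −1.13, against −0.46 over all genes (−0.80 against −0.06 with length adjustment). These are 10.53% higher and 26.3% lower, against 3.85% and 6.31% over all genes. The counts were 3 and 4 with length adjustment, and 1 and 1 without library 2 of H. Beside *DcbHLH3*, the bHLH130-like gene LOC108227355 was higher, with 42.9 and 42.3 FPKM in H, against 19.2 and 16.3 FPKM in CT (1.22 ± 0.25). The largest fall was that of the bHLH115-like gene LOC108226669, with 0.88 and 2.92 FPKM in H, against 14.6 and 17.8 FPKM in CT (−2.66 ± 0.50). This gene was called in 4 of the 8 alternatives, counting the fit without a minimum fold change. The bHLH13-like, bHLH71-like and bHLH93-like genes named by the study (LOC108193499, LOC108209686 and LOC108220953) were not called, with adjusted p of 0.171, 0.144 and 0.183.

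Of the listed glutathione S-transferases, 3 beside *GST1* were higher. All 8 listed genes were tested, 4 were higher and 1 lower, with the same counts after length adjustment and 3 higher and 0 lower without library 2 of H (over all genes, 3.85% were higher and 6.31% lower). The tau-class U17-like genes LOC108194096, LOC108195330 and LOC108195220 lie within 29.0 kb of one sequence, on the minus strand. LOC108195330 had 59.5 and 80.1 FPKM in H, against 1.56 and 5.08 FPKM in CT (4.15 ± 0.49) and LOC108194096 had 17.6 and 15.7 FPKM in H, against 0 and 0.36 FPKM in CT (3.92 ± 0.40). LOC108195220 had 12.2 and 12.9 FPKM in H, against 3.81 and 5.78 FPKM in CT, and was not called (adjusted p = 0.0902), so that neighbours with the same annotation differed in their calls. Reads shared between such copies were not examined. LOC108213210, a probable glutathione S-transferase, had 31.5 and 24.8 FPKM in H, against 0 and 0.20 FPKM in CT (4.73 ± 0.40). The U15-like gene LOC108199307 was the one that was lower, with 14.5 and 12.4 FPKM in H, against 41.5 and 56.7 FPKM in CT.

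Several phenylpropanoid genes that act on hydroxycinnamic acids were also higher in H. Carrot genes are named here after the Arabidopsis counterparts given in the study's pathway tables, and the roles are those known from Arabidopsis. Of 43 phenylpropanoid genes in those tables, which the study chose as DEGs among the E, F, G and H libraries, all were tested, 15 were higher and 5 lower (34.9% and 11.6%, against 3.85% and 6.31% over all genes). With length adjustment the counts were 16 and 5, and without library 2 of H they were 10 and 3. The median log2 fold change was 0.97, against −0.46 over all genes. Every pathway list below was chosen in the same way, so a share of calls above that of all genes is no independent evidence.

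The 3′-hydroxylase of coumaroyl esters (C3′H, LOC108227431) had 134 and 264 FPKM in H, against 7.75 and 11.2 FPKM in CT (4.19 ± 0.40). The transferase that forms its substrate (HCT, LOC108223132) changed less, with 70.01 and 71.2 FPKM in H, against 21.3 and 31.4 FPKM in CT (1.41 ± 0.28). The esterase that frees caffeate (CSE, LOC108194156) had 27.1 and 104 FPKM in H, against 0.68 and 0.88 FPKM in CT, with the H libraries far apart. All 3 act where coumarate is turned into caffeate.

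Genes of the later steps towards ferulate and sinapate were higher too. CCoAOMT1 (LOC108207577) had 254 and 312 FPKM in H, against 12.3 and 18.3 FPKM in CT (4.14 ± 0.28). The ferulate 5-hydroxylase F5H (LOC108225223), on the route to sinapate, had 192 and 305.7 FPKM in H, against 0.43 and 0.24 FPKM in CT, and its log2 fold change of 7.51 ± 0.35 was among the 10 largest rises. CCR1 (LOC108227809), a cinnamoyl-CoA reductase, had 742 and 942 FPKM in H, against 6.04 and 8.61 FPKM in CT (6.67 ± 0.27). REF1 (LOC108215217), the aldehyde dehydrogenase that yields ferulate and sinapate, had 477.9 and 292 FPKM in H, against 9.28 and 8.88 FPKM in CT (5.22 ± 0.30). In each of these 4 genes both H libraries were above both CT libraries, as they were in 20.4% of all genes tested.

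Further phenylpropanoid genes differed in direction. The UGT72E-type glucosyltransferase LOC108226125 had 19.2 and 25.9 FPKM in H, against 0.052 and 0.13 FPKM in CT (4.42 ± 0.40), and it also exceeded F, which had 1.38 and 1.40 FPKM in F (log2 fold change of H over F 3.29, adjusted p = 0.0329). The glycosyl hydrolases were split. LOC108210826, with 307 and 116 FPKM in H, against 0.23 and 0.47 FPKM in CT, was among the strongest rises, whereas LOC108214223, assigned to the same Arabidopsis gene, had 4.98 and 4.13 FPKM in H, against 32.7 and 31.9 FPKM in CT (−2.59 ± 0.32). The alcohol dehydrogenase-like LOC108205905, of the fatty acid and tyrosine pathway tables, had 157 and 152 FPKM in H, against 0.26 and 0.25 FPKM in CT (6.95 ± 0.31).

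Genes of phenylalanine synthesis were among the rises. Of 7 genes of phenylalanine, tyrosine and tryptophan synthesis, all were tested, 3 were higher and 0 lower by limma (over all genes, 3.85% and 6.31%); 5 were higher with length adjustment and 2 without library 2 of H. The arogenate dehydratase LOC108210565, which forms phenylalanine, had 32.5 and 62.6 FPKM in H, against 2.89 and 3.53 FPKM in CT (3.46 ± 0.42). The chorismate mutase LOC108196652, which directs chorismate to phenylalanine and tyrosine, had 18.9 and 18.04 FPKM in H, against 1.03 and 2.04 FPKM in CT (2.97 ± 0.42). A short dehydratase locus, LOC108200515, had 13.1 and 3.33 FPKM in H, against 0 and 0 FPKM in CT.

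**Figure D3:**
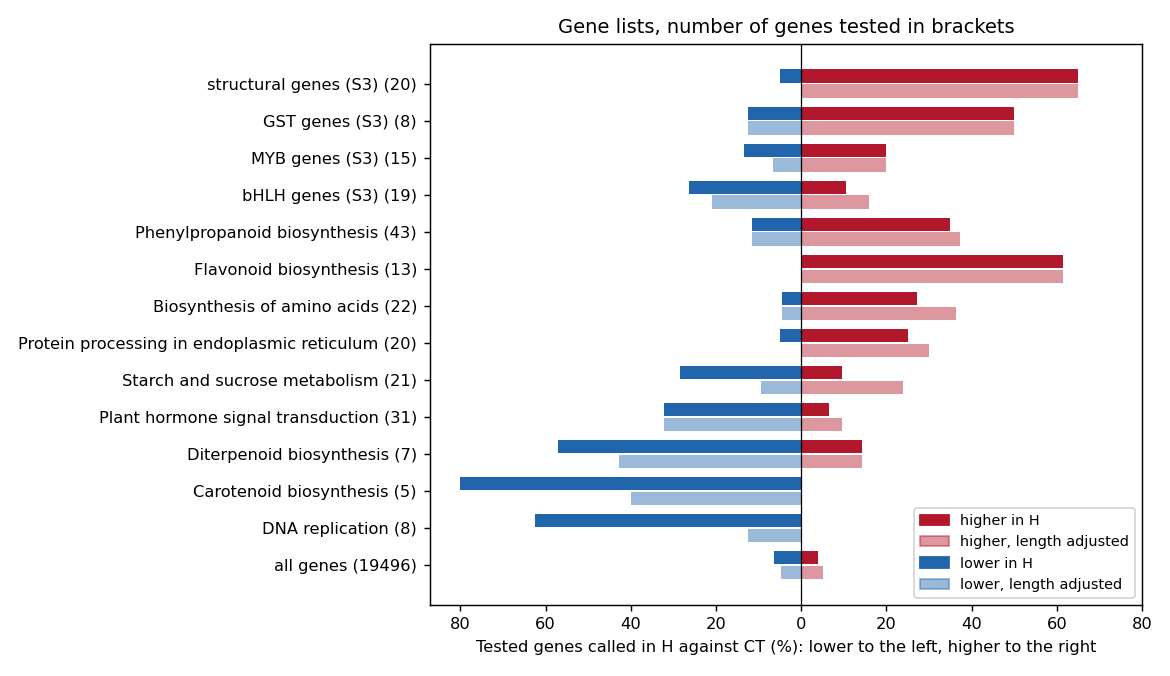
Percentage of the tested genes of each list called lower (left, blue) and higher (right, red) in H than in CT, as deposited (dark) and with length adjustment (pale); numbers tested are in brackets. The structural genes reached 65.0% higher, whereas 3.85% of all genes were higher; the bars of lower calls for DNA replication, carotenoid and starch genes shrank with length adjustment.

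Other genes higher in H are given singly, since the lists that hold them did not all move one way. Over all genes tested, 3.85% were higher and 6.31% lower in H. Of 8 galactose metabolism genes tested, 2 were higher and 2 lower (3 and 1 with length adjustment, 0 and 0 without library 2 of H). Galactinol synthase, which starts the raffinose series of sugars, was represented by LOC108215254, with 51.2 and 76.96 FPKM in H, against 0.31 and 2.24 FPKM in CT (4.95 ± 0.54), and LOC108210651, with 25.8 and 28.4 FPKM in H, against 1.11 and 4.39 FPKM in CT (3.06 ± 0.54). A sucrose synthase, LOC108196194, had 27.6 and 15.4 FPKM in H, against 0.20 and 0.18 FPKM in CT (4.18 ± 0.45). Sucrose synthase cleaves sucrose, the sugar that phloem carries. Of the 20 tested genes of protein processing in the endoplasmic reticulum, 5 were higher and 1 lower (25.0% and 5.0%, against 3.85% and 6.31% over all genes), with 6 and 0 after length adjustment and 4 and 0 without library 2 of H. The 5 higher genes were the HSP70 exchange factor of the Fes1 type LOC108210532, with 104 and 112 FPKM in H, against 13.6 and 12.4 FPKM in CT (2.96 ± 0.23), the small heat shock protein genes LOC108211582, LOC108225374 and LOC108226827, and the translocon gene LOC108207023 described below. LOC108210532 was also above F, which had 8.57 and 7.61 FPKM in F (H over F 3.58, adjusted p = 0.00844).

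Terpene synthases, on which carrot aroma depends, were split. Of the monoterpenoid genes assigned to one Arabidopsis gene, LOC108217939 was higher, with 42.6 and 24.3 FPKM in H, against 0 and 0.083 FPKM in CT (adjusted p = 0.0168), and LOC108211455 was lower, with 0.80 and 0.40 FPKM in H, against 5.07 and 8.55 FPKM in CT (−2.26 ± 0.42). The photosystem II antenna gene LHCB6 (LOC108202761) had 71.5 and 88.1 FPKM in H, against 0.14 and 0 FPKM in CT, a log2 fold change of 6.23 ± 0.37. It had 92.9 and 88.8 FPKM in G, and it was higher in H than in F, with 0.70 and 1.59 FPKM in F (H over F 5.26, adjusted p = 0.00777). The cytochrome P450 gene LOC108224820, of the CYP83B1 type that acts in indole metabolism in Arabidopsis, had 20.1 and 20.1 FPKM in H, against 0.45 and 0.79 FPKM in CT. A nitrate reductase gene, LOC108215759, had 92.3 and 87.7 FPKM in H, against 2.98 and 11.02 FPKM in CT.

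Hormone response genes were more often lower than higher in H. Of 35 listed genes of hormone signal transduction, 31 were tested, 10 were lower and 2 higher (32.3% and 6.45%, against 6.31% and 3.85% over all genes), with a median log2 fold change of −0.99 against −0.46 over all genes. The study chose this list from DEGs among the E, F, G and H libraries, so its excess of calls is no independent evidence. With length adjustment 10 were again lower and 3 higher, and the median was −1.04 against −0.06; without library 2 of H, 5 were lower and 1 higher. Auxin genes, grouped after their values were seen, made up 15 of the 31 tested, with 8 lower and 0 higher, and the other 16 included 2 lower and 2 higher. Of 9 tested genes for Aux/IAA proteins, which repress auxin response and are themselves induced by auxin, 5 were lower and 4 were not called.

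The strongest of these, an IAA17-type gene (LOC108222038), had 2.53 and 1.44 FPKM in H, against 55.3 and 77.8 FPKM in CT (−4.50 ± 0.38, adjusted p = 0.0154). An IAA13-type gene (LOC108197503) had 0.25 and 0.097 FPKM in H, against 10.4 and 12.2 FPKM in CT (−3.39 ± 0.37), and its relative LOC108215036 had 2.16 and 0.60 FPKM in H, against 12.5 and 9.46 FPKM in CT. The CT levels of IAA14 (LOC108200255) and IAA27 (LOC108227728) were between 4.94 and 6.25 FPKM, and their H levels between 0.35 and 0.52 FPKM. None of these libraries overlapped between H and CT, as in 49.7% of all genes tested, in which both H libraries were lower.

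Of 3 auxin importer genes tested, 2 were lower (over all genes, 6.31%). AUX1 (LOC108199701) had 2.98 and 3.21 FPKM in H, against 24.9 and 25.8 FPKM in CT (−2.69 ± 0.34) and LAX2 (LOC108195333) had 0.47 and 0.29 FPKM in H, against 13.6 and 9.90 FPKM in CT (−3.19 ± 0.40). GH3.6 (LOC108224263), which conjugates auxin to amino acids, had 0.45 and 0.58 FPKM in H, against 10.49 and 11.8 FPKM in CT (−3.01 ± 0.38). The remaining pair stands in the cytokinin branch. The D-type cyclin CYCD3 (LOC108225757), which drives cell division in the cambium of Arabidopsis, had 0.52 and 0.17 FPKM in H, against 10.3 and 11.4 FPKM in CT (−3.15 ± 0.39), and the phosphotransfer gene AHP4 (LOC108193462) had 0.17 and 0.41 FPKM in H, against 8.97 and 6.16 FPKM in CT (−2.72 ± 0.38). The 2 hormone genes that were higher, the jasmonate receptor COI1 type LOC108192397 with 95.9 and 127 FPKM in H, against 23.1 and 43.1 FPKM in CT, and the abscisic acid receptor type LOC108194075 with 122 and 191 FPKM in H, against 21.2 and 34.9 FPKM in CT, were not called with length adjustment once library 2 of H was left out.

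Genes of DNA replication were low in both groups and lower in H, but the calls depended on length. Of 9 listed genes, 8 were tested and 5 were lower (over all genes, 6.31%), against 1 with length adjustment, 0 without library 2 of H and 3 with both. The licensing helicase subunit MCM2 (LOC108200094, 3287 bp) had 0.58 and 0.31 FPKM in H, against 5.12 and 6.02 FPKM in CT (−2.19 ± 0.35, and −1.10 with length adjustment). MCM5 (LOC108216116) had 0.46 and 0.31 FPKM in H, against 4.90 and 4.62 FPKM in CT, and MCM3 and MCM6 (LOC108197264 and LOC108217507) had between 0.52 and 0.88 FPKM in H and between 4.09 and 4.93 FPKM in CT. The one gene called lower with length adjustment was the shorter RPA32 (LOC108194489, 1156 bp), with 1.21 and 1.28 FPKM in H, against 9.28 and 7.59 FPKM in CT (−2.07 with length adjustment).

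**Figure D4:**
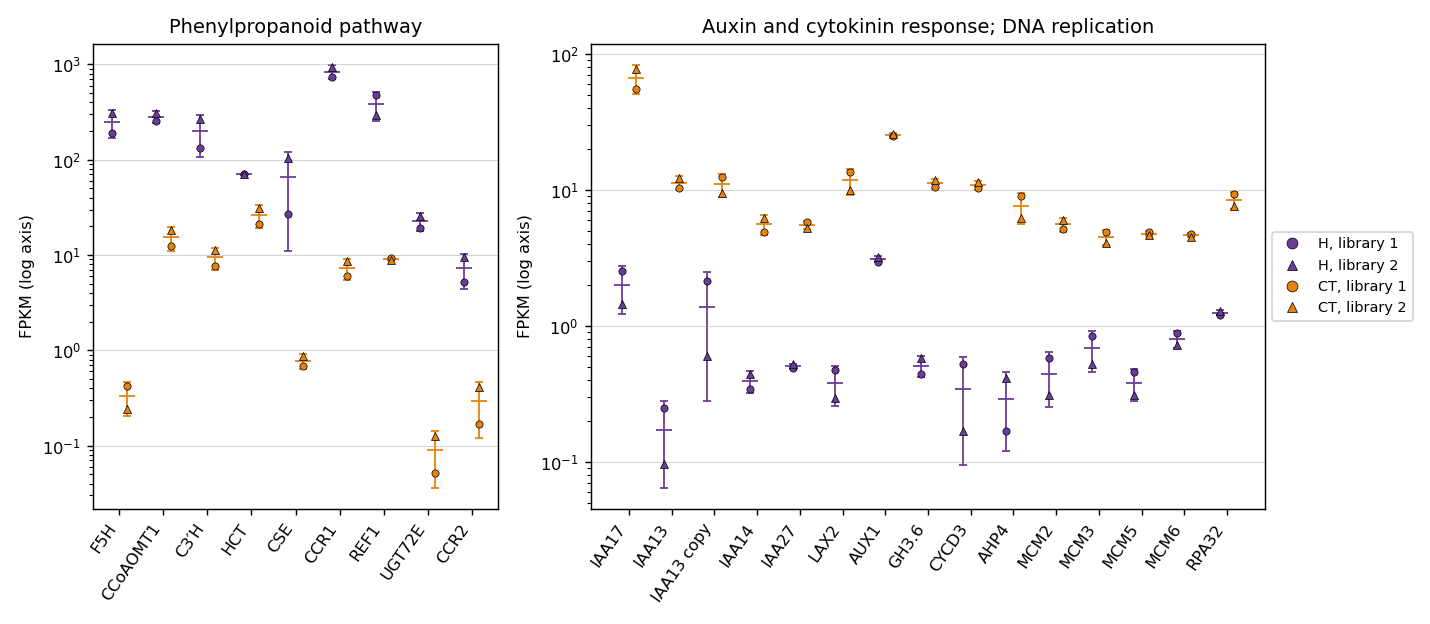
FPKM (log axis) of 9 phenylpropanoid genes (left) and 15 hormone response and DNA replication genes (right) in each library of H (purple, left of each pair) and CT (orange, right); bars are the mean ± SD (n = 2), with lower bars cut short of 0. The genes were chosen after their values were seen. All H points lie above the CT points on the left and below them on the right, as in 20.4% and 49.7% of all genes tested. *CCR1* stands highest in H among the genes on the left.

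Carotenoid cleavage and gibberellin genes were also among the falls. All 5 listed carotenoid genes were tested and 4 were lower (over all genes, 6.31%), against 2 with length adjustment and 1 without library 2 of H; their median length was 2221 bp. The lower ones act downstream of the pigments, in abscisic acid and strigolactone metabolism. NCED3-type dioxygenases, which cut carotenoids towards abscisic acid, were represented by LOC108216136, with 0.83 and 0.35 FPKM in H, against 13.6 and 21.1 FPKM in CT (−3.51 ± 0.45), and LOC108220601, with 2.91 and 2.42 FPKM in H, against 14.5 and 33.6 FPKM in CT (−2.66 ± 0.50). The abscisic acid hydroxylase LOC108210231 had 0 and 0.072 FPKM in H, against 4.33 and 4.15 FPKM in CT, and the CCD8-type LOC108215310 had 0.032 and 0 FPKM in H, against 3.17 and 2.03 FPKM in CT. Neither of these was called with length adjustment.

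Of 7 diterpenoid genes, all of which were tested, 4 were lower and 1 higher (over all genes, 6.31% and 3.85%; 3 and 1 with length adjustment; 0 and 0 without library 2 of H). The gibberellin 20-oxidase LOC108219976, which makes gibberellin precursors, had 10.48 and 13.4 FPKM in H, against 71.7 and 49.7 FPKM in CT (−2.24 ± 0.31). The 2-oxidases, which inactivate gibberellins, were split. LOC108195451 had 0.41 and 0.11 FPKM in H, against 6.88 and 9.22 FPKM in CT (−2.84 ± 0.38), and LOC108220936 had 4.06 and 4.41 FPKM in H, against 0.24 and 0.47 FPKM in CT (1.95 ± 0.32).

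Some single genes of other pathways had large falls, although their choice followed their values. In the lists of amino acid and carbon metabolism more genes were higher than lower: 6 of 22 tested genes of amino acid biosynthesis were higher and 1 lower, and 3 of 19 of carbon metabolism were higher and 1 lower (8 and 1, and 4 and 0, with length adjustment; 4 and 1, and 2 and 0, without library 2 of H). As deposited, higher calls made up 27.3% of the amino acid list and 15.8% of the carbon list, against 3.85% over all genes. Lower calls made up 4.55% and 5.26%, against 6.31% over all genes. The phosphoethanolamine methyltransferase LOC108218638, which makes choline precursors, had 23.3 and 15.3 FPKM in H, against 264 and 295 FPKM in CT (−3.81 ± 0.28). The proline synthesis enzyme P5CS1 type LOC108199525 had 12.6 and 8.41 FPKM in H, against 70.1 and 76.6 FPKM in CT, and the pectate lyase LOC108223751 had 15.97 and 23.2 FPKM in H, against 214 and 167 FPKM in CT. A plasma membrane proton pump, LOC108214338, had 1.13 and 0.76 FPKM in H, against 15.7 and 25.9 FPKM in CT. All 4 were called with length adjustment. In starch and sucrose metabolism, 6 of 21 tested genes were lower and 2 higher (28.6% and 9.52%, against 6.31% and 3.85% over all genes), but with length adjustment 2 were lower and 5 higher, and without library 2 of H 2 and 2, so that its direction depended on the scaling.

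The 10 largest falls among annotated genes with non-overlapping libraries and at least 10 FPKM in CT lay between −7.38 and −4.91, and were all called with length adjustment, with and without library 2 of H. They were 586 to 1710 bp long. The files give these genes no names, and 2 of them, LOC108195251 and LOC108193838, are long non-coding RNAs in RefSeq, with 0.20 and 0 FPKM in H, against 112 and 68.1 FPKM in CT for LOC108195251. LOC108203059 had 0.16 and 8.06 FPKM in H, against 465 and 626 FPKM in CT, and in other groups it had 728 and 893 FPKM in G, 159.6 and 457 FPKM in E and 20.5 and 6.94 FPKM in F. LOC108224507 had 2.70 and 1.96 FPKM in H, against 193 and 150.2 FPKM in CT, with 319.7 and 544 FPKM in G. LOC108201747 had 3.47 and 5.61 FPKM in H, against 227 and 162 FPKM in CT, with 262 and 221 FPKM in G.

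A different pattern was seen for LOC108214138 (plus strand, 35195040 to 35207097). It was listed at 0 in both H libraries, with 41.8 and 46.02 FPKM in CT, so that its lower CT library was at least 190-fold above the 3-fragment limit per library of 0.220 FPKM in H. In E, F and G no library exceeded 0.44 FPKM. LOC108193840 came near this pattern, with 0.97 and 0.11 FPKM in H, against 52.3 and 57.6 FPKM in CT, 9.23 and 1.95 FPKM in E, 3.58 and 4.47 FPKM in F and 0.42 and 0.22 FPKM in G. Both transcripts were higher in the CT libraries than in any library of H, E, F or G.

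**Figure D5:**
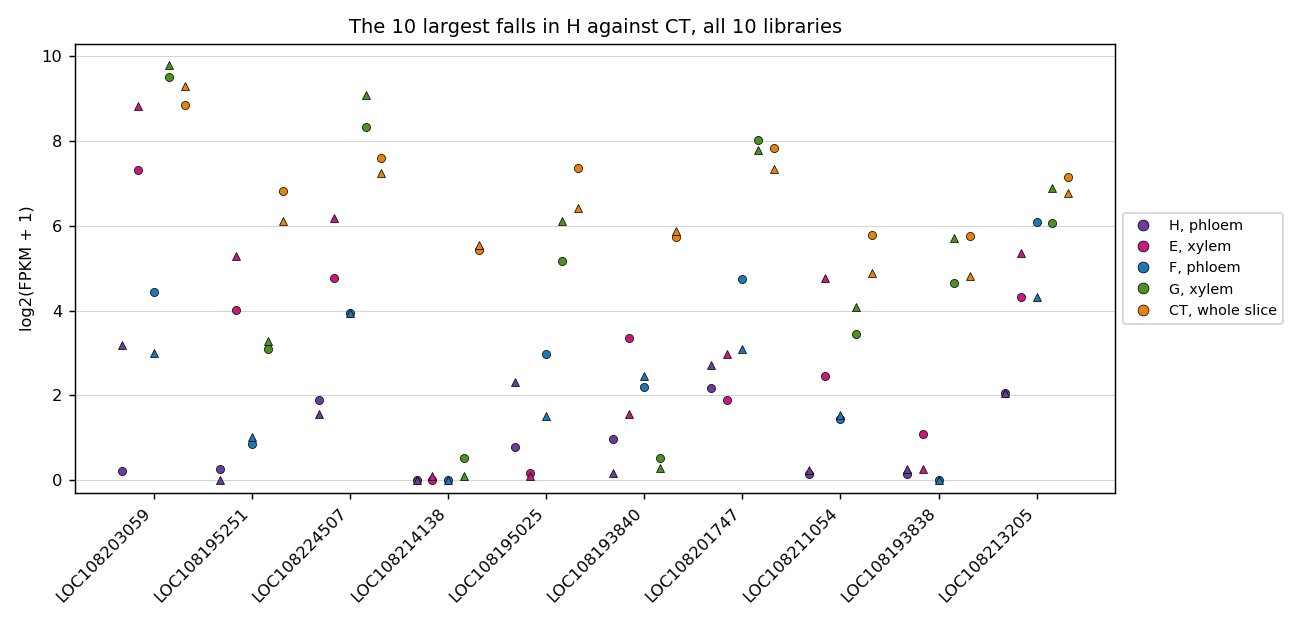
log2(FPKM + 1) of the 10 genes with the largest falls in H against CT, in both libraries (circle, library 1; triangle, library 2) of H, E, F, G and CT. The genes were chosen for low H and high CT values; LOC108214138 is near 0 in all but CT.

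Genes absent from one side were counted separately. Among the DEGs, 94 were listed at 0 in both CT libraries and 125 at 0 in both H libraries. Of the 94, 63 had at least 1 FPKM in both libraries of xylem G, from the same cultivar as H, and 7 in both libraries of phloem F. Of the 125, 20 had at least 1 FPKM in both libraries of G and 20 in both libraries of F. Of all 36908 loci, 17259 and 17799 reached 1 FPKM in the single libraries of G and 17058 and 17297 in those of F. These are counts per library, whereas the counts above required both libraries. The share of all genes at 0 in both CT or both H libraries was not counted. The 94 and 125 genes were picked for their H and CT values, and the cause of their levels in G and F was not tested. The Sec61-type translocon gene LOC108207023 (minus strand, 7648497 to 7659133) had 16.4 and 16.9 FPKM in H, 16.2 and 20.9 FPKM in G and 0 in all CT, E and F libraries. Its lower H library was at least 138-fold above the 3-fragment limit per library of 0.119 FPKM in CT. Of 375 loci outside the annotation that were tested, 45 were higher and 33 lower (over all genes, 3.85% and 6.31%).

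Genes that differ between tissues were taken from xylem E against phloem F, 2 tissues of one cultivar that share no library with H or CT. There, 10 genes were called higher in E (0.0547% of 18293 tested) and 58 lower in E, that is, higher in F (0.317%). Leaving out library 1 of E gave 17 calls, and leaving out any other library of E or F gave 0, so that these lists rest on all 4 libraries. Of the 58 phloem-high genes, 21 (36.2%) were higher and 3 (5.17%) lower in H than in CT, against 3.85% and 6.31% over all genes. Of the 10 xylem-high genes, 9 (90.0%) were lower in H than in CT and 0 higher. These 21 and 9 genes made up 2.80% of all genes higher in H and 0.732% of all genes lower. The APL-like gene LOC108225351, after a phloem identity regulator of Arabidopsis, had 0.21 and 0.28 FPKM in H, against 1.27 and 1.70 FPKM in CT, and was not called (limma adjusted p = 0.0649). It had 0.33 and 0.27 FPKM in phloem F and 4.87 and 5.83 FPKM in xylem G, so it did not mark phloem in these libraries. Other defining xylem and phloem markers could not be matched by name.

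Some pathway genes differed between E and F. The flavonol synthase-like LOC108197342 had 0.48 and 0.76 FPKM in E and 49.4 and 91.8 FPKM in F, and the peroxidase LOC108215746 had 1.88 and 2.52 FPKM in E and 437 and 249.9 FPKM in F; both were lower in E than in F by limma (adjusted p = 0.0245 and 0.00556) and higher in H than in CT. IAA14 (LOC108200255) was higher in E, with 172 and 142 FPKM in E and 2.81 and 8.97 FPKM in F, and lower in H than in CT. Not every gene kept this order. LOC108220388 had 0.45 and 0.32 FPKM in E and 36.8 and 20.1 FPKM in F (limma adjusted p = 0.0473), but was lower in H than in CT (−1.53 ± 0.26). The DFR-like LOC108224331 was lower in E than in F (limma adjusted p = 0.0497) and was not called between H and CT. By contrast, the 10 largest rises were all uncalled between E and F, with *CHS1* at 4958 and 7154 FPKM in E and 7591 and 8899 FPKM in F.

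One tissue was compared between cultivars in xylem E against xylem G, which also share no library with H or CT but come from different cultivars. Limma called 1313 genes, and 1.62% of 18924 tested were higher in E and 5.32% lower. No more than 370 were called when a library was left out, and 0 without library 2 of E or either library of G. Of the 13 structural genes higher in H than in CT, 10 were higher in E than in G. The same held for all 10 of the largest rises and for 10 of the 15 phenylpropanoid genes higher in H. *CHS1* had 4958 and 7154 FPKM in E and 78.9 and 74.8 FPKM in G, and *LDOX1* had 368 and 296 FPKM in E and 28.9 and 27.2 FPKM in G. *CHS1* and *LDOX1* thus stood high in E and low in G, the order of the study's colours and not of the colour tags. The study chose the structural and phenylpropanoid lists on libraries that include E and G. Most of the 10 largest rises also stand on lists that the study chose on those libraries. The counts of these lists and of the 10 largest rises are therefore no independent evidence of direction between E and G. Which source labels the groups rightly was not tested.

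Over all genes the share was smaller. Of the 751 genes higher in H, 60 (7.99%) were higher in E than in G, which is 19.6% of the genes higher in E, and 132 (17.6%) were lower in E, which is 13.1% of that list. Of the 1230 genes lower in H, 163 (13.3%) were lower in E, which is 16.2% of that list, and 34 (2.76%) were higher in E, which is 11.1% of that list. Of the 10 hormone genes lower in H, 5 were lower in E than in G and 1, IAA14, was higher. Values in G and CT are given for a pair of pigment genes: *CHS1* had 78.9 and 74.8 FPKM in G and 8.40 and 8.72 FPKM in CT, and *GST1* had 38.3 and 23.5 FPKM in G and 4.07 and 3.66 FPKM in CT.

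Set directly against phloem F, H differed in 263 genes, 164 higher and 99 lower (0.878% and 0.53% of 18671 tested), and in 0 when any one library of H or F was left out (1632 to 3606 at an unadjusted p below 0.05). None of the 13 structural genes higher in H than in CT was among them. For *CHS1*, which had 7591 and 8899 FPKM in F, the log2 fold change of H over F was −0.17 (adjusted p = 0.925), and for *DFR1* it was −0.61 (adjusted p = 0.54). A p of this size in a comparison of 2 against 2 libraries does not show that the levels were alike. The H libraries are shared by this comparison and that with CT, so that their calls are not independent.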

How the data were processed

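RNA-Seq of 10 libraries (2 each of E, F, G, H and CT) was used. The authors mapped reads with TopHat2 2.0.12 and Bowtie2 2.2.3, counted them with HTSeq 0.6.1, called DEGs with DESeq 1.18.0 and deposited FPKM per locus; the genome build was not given in the sources used here. FPKM are scaled by gene length and library total, so that length trends between libraries remain in them. Scaling totals of 13909750 to 17118711 fragments were estimated from the steps of the low FPKM values, and 75.4% of the 30180 detected loci came out as whole fragments within 0.02.

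Here log2(FPKM + 1) was tested with limma 3.58.1 in R 4.3.3, on the libraries of each comparison alone, for genes whose mean reached 1 FPKM in either group. DEGs had a Benjamini-Hochberg adjusted p below 0.05 over all genes tested and a log2 fold change of 1 or more in either direction. Fold changes on this scale understate those of low genes. With 2 libraries a group, an exact permutation test cannot reach 0.05. The alternatives were no minimum fold change, a pseudocount of 0.1, no filter, quantile normalization, voom on estimated fragments, one fit of all 10 libraries, a replicate block and leaving out each library. A length spline, the spline without library 2 of H, and crossed numbers in the block were chosen after the data were seen.

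The members and lists were chosen with earlier results of these data known. Named genes were the anthocyanin genes listed by the study, the 10 largest rises and the 10 largest falls among annotated genes with non-overlapping libraries and a higher group mean of 10 FPKM or more, and genes of functional lists. The functional lists and cell type markers were to be found by gene description. Only the study's list of anthocyanin, MYB, bHLH and GST genes paired identifiers with descriptions, so pathway lists of the study's supplementary tables with at least 5 genes (56 lists) replaced them after the data were seen, and the genes named from these lists were chosen after their values were seen. The study chose these from DEGs among E, F, G and H. RefSeq matched 32534 of 36089 annotated identifiers and was used for gene class only. The authors' own fold changes and p-values were not used.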

Additional observations from a re-analysis of the deposited data

Results flagged for a closer look

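In 3 regulator genes, H differed from F, the phloem of the other purple cultivar, by a direct limma test of the libraries of both. *DcMYB6* was lower in H than in F (log2 fold change −5.40, adjusted p = 0.0114), as was *DcMYB7* (−6.76, adjusted p = 0.00475). The MYB1R1-like gene LOC108196925 was higher in H than in F (2.73, adjusted p = 0.02). Leaving out any one library of H or F left limma with 0 calls in that comparison over all genes.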

How the results depend on the processing

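The number of DEGs depended strongly on the libraries and the fit. For H against CT (1981 DEGs), limma called 971 genes with no filter on low values, 3677 in one fit of all 10 libraries, and 0 to 8611 when one library was left out (9 without library 1 and 0 without library 2 of CT, 744 without library 2 and 8611 without library 1 of H). For H against F (263) it called 7 with no filter, 468 with quantile normalization, 0 with voom (2687 at an unadjusted p below 0.05), 1259 in one fit, 518 with length adjustment, and 0 without any one library. For E against G (1313) it called 122 with no filter, 2938 in one fit, and 0 to 370 with one library left out. For E against F (68) it called 13 with no filter, 147 with quantile normalization, 0 with voom (1932 unadjusted), 879 in one fit, 154 with length adjustment, and 0 to 17 with one library left out. Of the structural anthocyanin genes (13 higher), 0 to 14 were called higher with one library left out. A lone library in a group was assumed to vary like the other group. The causes were not tested, beyond the fewer samples or the larger number of genes tested.

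The replicate numbers were not used as pairs in the main fit. The differences between replicates correlated at −0.0774 for H and CT, over 2 pairs from different cultivars. Such a value cannot decide whether the numbers pair the samples. The correlation was −0.109 for H and F, −0.429 for E and G and −0.295 for E and F. A replicate block gave 4652 calls for H against CT, 991 for H against F, 1373 for E against G and 582 for E against F. With the numbers crossed, the block gave 1241 calls for H against F, 3272 for E against G and 566 for E against F.

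Among 200 named or listed genes, 171 kept their direction and side of the threshold with length adjustment, and 26 lost their call. Among called genes, the sign turned with length adjustment in LOC108196365 (0.11) and LOC108205866 (0.040), which then lost their call. LOC108202996, not called as deposited (−0.36), was called the other way (1.19) with length adjustment and without library 2 of H, and had 0.39 with length adjustment alone. Other genes that were called in neither fit also changed sign, such as *CHS9* (0.38 as deposited and −0.079 with both changes).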
